A study of Mus musculus with 31 samples.

Results

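Chil3, Chil4, Chil1, Retnla and Chid1, chitinase-like and resistin-like genes of which several are used as markers of macrophages exposed to IL4, were taken by symbol from the deposited expression table. All 5 symbols were found among the 24302 listed. Chil3, Chil4, Retnla and Chid1 passed the filter on low values and were tested with all other genes, while Chil1 did not pass and was described by library.

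Chitinase-like proteins share the fold of the enzymes that cut chitin. Chil3, also called Ym1, Chil4, also called Ym2, and Chil1, also called BRP-39, have lost that activity and are secreted, and Chid1 encodes a chitinase-domain protein of the secretory and lysosomal compartments. Retnla encodes RELM alpha, also called Fizz1, a small secreted cysteine-rich protein related to resistin. IL4 signals through its receptor to the transcription factor STAT6, and Chil3 and Retnla are among the genes most often used to follow that response in mouse macrophages.

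The cells were peritoneal macrophages of C57BL/6 mice aged 8.5 weeks. They were drawn into the abdominal cavity with 3% thioglycollate, harvested 4 days later and kept overnight in DMEM. The study used 4 control mice and 4 PPARgammaMPKO mice, whose macrophages are to lack the nuclear receptor PPARγ and are called KO here, and the labels used here do not give the promoter of the deleting recombinase. Cells of both genotypes were left untreated, or received for 24 h DMSO as vehicle, 1 uM rosiglitazone, a synthetic PPARγ ligand, or 20 ng/mL IL4. Of the 31 libraries, 16 are control and 15 are KO, and each of the 8 groups holds 4 except KO with rosiglitazone, which holds 3. Libraries of 1 genotype across treatments come from the same 4 mice as far as the design text tells, so a group of 4 spans mice and the treatments are not independent of each other.

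Values are FPKM, fragments scaled by gene length and library size, after each library was divided by its median ratio to all libraries (factors 0.577 to 1.21). Relative depth, taken from the spacing of the lowest values, was 0.594 in the shallowest and 1.54 in the deepest library, with untreated control library 1 as the unit. KO untreated 2, control IL4 2 and KO untreated 3 had FPKM sums of 150901 to 166420, against at least 222091 in the other 28. All 9 macrophage markers checked passed the filter, with sums of 1012 to 1416. Of 5 eosinophil markers only Siglecf passed, at 3.27 to 11.8 FPKM, while Epx was at 0 in all 31 libraries and Prg2 in 29. Pparg itself was at 49.8 ± 2.93 FPKM in untreated control libraries and at 44.8 ± 6.65 in untreated KO libraries (SD, n = 4). With rosiglitazone it was higher in KO libraries, at 42.2 ± 5.39 (n = 3) against 33.0 ± 2.10 (limma adjusted p = 0.0303). With IL4 its mean was 118 ± 13.4 in KO and 97.7 ± 5.34 in control libraries, which overlapped (limma adjusted p = 0.08414). This is a value over the whole gene, which can hold transcript left after a deletion, so it does not check the deletion.

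The promoters of Chil3, Chil4 and Retnla are shown because these 3 members had the largest IL4 responses of the 5 and because Chil3 and Chil4 are near copies. Each line gives the 250 bases before the RefSeq start, 5′ to 3′, in build GRCm38.p6, with the first match to a STAT-type palindrome in capitals. The Chil3 stretch lies on the minus strand at chr3:106167565-106167814, the Chil4 stretch on the minus strand at chr3:106219480-106219729 and the Retnla stretch on the plus strand at chr16:48842359-48842608. These coordinates are not those of the deposited table, whose processing notes name mm9.
Chil3: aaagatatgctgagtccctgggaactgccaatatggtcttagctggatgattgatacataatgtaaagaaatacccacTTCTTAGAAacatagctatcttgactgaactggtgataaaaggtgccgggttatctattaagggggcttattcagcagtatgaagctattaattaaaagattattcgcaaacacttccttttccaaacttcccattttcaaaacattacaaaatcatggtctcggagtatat
Chil4: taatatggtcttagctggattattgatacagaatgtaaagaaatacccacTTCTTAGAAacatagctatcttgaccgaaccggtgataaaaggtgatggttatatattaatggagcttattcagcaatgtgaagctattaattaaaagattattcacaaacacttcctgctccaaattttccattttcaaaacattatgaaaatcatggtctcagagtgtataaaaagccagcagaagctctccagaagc
Retnla: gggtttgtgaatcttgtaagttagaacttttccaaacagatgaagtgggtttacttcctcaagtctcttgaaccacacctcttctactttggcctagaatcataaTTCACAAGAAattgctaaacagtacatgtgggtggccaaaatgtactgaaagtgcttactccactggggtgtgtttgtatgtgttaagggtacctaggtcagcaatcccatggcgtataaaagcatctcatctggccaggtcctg

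In windows of 300 bases, from 250 before to 50 after the start, both strands were searched for 4 motifs. TTCNNNGAA was found in Chil3 as TTCTTAGAA, 172 to 164 bases before the start, and in Chil4 as the same letters, 200 to 192 bases before it. The RefSeq starts of Chil3 and Chil4 fall at different places in the sequence they share, so these distances do not show a shifted motif. The palindrome with 4 bases between TTC and GAA, the spacing bound by STAT6, was found in Retnla as TTCACAAGAA, 145 to 136 bases before the start. These 2 motifs stand in 8.47% and 6.99% of 27025 mouse promoters of the same length. TTGCNNAA, a core of C/EBP sites, stands in 10.8% of promoters and was found in Retnla, beside the palindrome at 134 to 127 bases, and in Chil4 on the reverse strand at 131 to 124 bases. AGGTCA, the core bound by many nuclear receptors, stands in 16.0% and was found in Retnla 50 to 45 bases before the start. None of the 4 was in the Chil1 window or the 3 Chid1 windows. A match describes letters and shows no binding.

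The Chil3 and Chil4 windows shared 251 of 271 aligned bases, or 92.6%. Their transcripts shared 1452 of 1538 aligned bases, or 94.4%, and 18.5% of all 50-base stretches of the Chil4 transcript were also found in Chil3. How reads that fit both genes were counted is not stated by the labels or notes used here, so the split between Chil3 and Chil4 is uncertain. Retnla and its neighbour in sequence, Retnlg, were 84.5% identical and shared 0 stretches of 50 bases.

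The comparison of IL4 with untreated cells asks how strongly each gene responded to the cytokine. Chil3, Chil4, Retnla and Chid1 rose in control cells, 4 of 4 tested, against 12% of all genes tested that rose. In KO cells the same 4 of 4 rose, against 10.4% of all genes. Chil4 had at most 0.743 FPKM in libraries without IL4, so it passed the filter only through IL4 libraries. Its place in the counts of 4 was therefore set by the filter. On the scale of log2(FPKM + 1), Chil3 had the largest increase of 10277 genes in both genotypes, and Chil4 and Retnla stood 2nd and 4th in control and 4th and 3rd in KO cells. The order of the members depends on that scale: the ratio of means was 961 for Chil4 and 873 for Chil3 in control cells, and in KO cells it was 473 for Chil3, 282 for Chil4 and 100.4 for Retnla. IL4 raised Chid1 by far less.

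Chil3, the chitinase-like protein that macrophages secrete after IL4, had 3.81, 7.69, 9.35 and 8.38 FPKM in untreated control libraries 1 to 4. With IL4 the 4 control libraries had 5402, 5641, 7849 and 6633 FPKM. Every IL4 library stood far above every untreated one, and Chil3 ranked between 1st and 6th of all symbols in these libraries, holding 2.00% to 3.03% of the FPKM. The mean went from 7.31 ± 2.43 to 6381 ± 1114 (SD, n = 4), a log2 difference of 9.63 on the scale of log2(FPKM + 1) (SE 0.33, limma adjusted p = 2.126e-18). In these bulk samples, fewer cells expressing a gene and less RNA per cell cannot be told apart.

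In KO cells Chil3 had 6.81, 5.19, 3.64 and 12.3 FPKM untreated. With IL4 it had 3635, 3070, 3610 and 2896 FPKM. The groups did not overlap, and Chil3 ranked between 8th and 11th of all symbols, with 1.01% to 1.51% of the FPKM. The log2 difference was 8.80 (SE 0.33, limma adjusted p = 1.616e-17).

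Chil4, the close copy of Chil3, was near the lower limit of the data without IL4. Untreated control libraries had 0.0767, 0.367, 0.290 and 0.151 FPKM, and untreated KO libraries had 0.376, 0.308, 0.194 and 0.656. The spacing of the low values puts these at 3 to 20 and at 6 to 32 counted fragments per library. With IL4, control libraries had 192, 185, 253 and 220 FPKM and KO libraries had 122, 99.5, 119 and 92.0. No IL4 library came near an untreated one in either genotype. The log2 difference was 7.45 in control cells (SE 0.13, limma adjusted p = 3.94e-25) and 6.30 in KO cells (SE 0.13, limma adjusted p = 3.147e-23). The pseudocount of 1 is larger than the untreated values, so these understate the change. The SE also depends on the pseudocount. In untreated control libraries the coefficient of variation was 59.5% for Chil4 and 33.2% for Chil3, yet Chil4 had the smaller SE. With a pseudocount of 0.1 the SE of Chil4 was larger, as given below for KO against control with IL4.

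**Figure D1:**
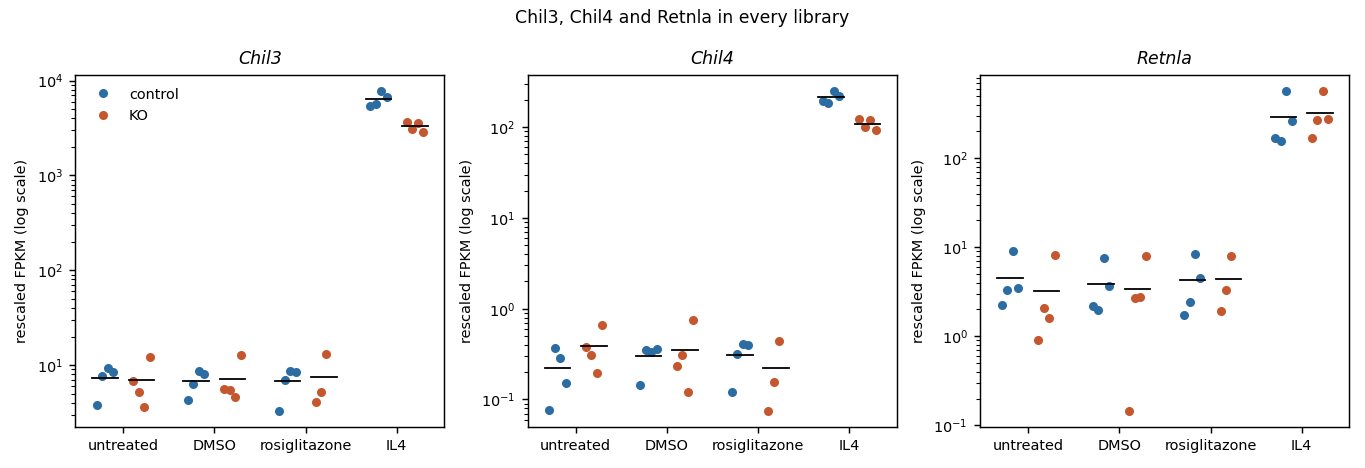
Chil3, Chil4 and Retnla in rescaled FPKM on a log axis, by treatment; points are single libraries, set left to right by replicate number, blue for control and orange for KO, and lines are group means (n = 4, and 3 for KO rosiglitazone). With IL4, Chil3 and Chil4 are lower in all 4 KO libraries than in any control library, while the Retnla libraries overlap.

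Retnla, the RELM alpha gene, had 2.26, 3.34, 8.99 and 3.49 FPKM in untreated control libraries and 0.899, 2.07, 1.59 and 8.18 in untreated KO libraries. With IL4 it had 168, 157, 573 and 259 FPKM in control and 167, 266, 574 and 272 in KO libraries. The IL4 and untreated groups did not overlap, yet within each group 1 library stood well above the rest. The log2 difference was 5.64 in control cells (SE 0.57, limma adjusted p = 1.976e-08) and 6.40 in KO cells (SE 0.57, limma adjusted p = 1.99e-09).

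Retnla had the widest spread of the 3 strongly responding genes. Its coefficient of variation with IL4 was 67.4% in control and 55.1% in KO libraries, against 17.5% and 11.4% for Chil3 and 14.5% and 13.7% for Chil4. Control library 3 was the highest in all 4 treatments, with 7.53 FPKM in DMSO and 8.45 with rosiglitazone beside the values above. Among KO libraries, number 4 was the highest untreated and in DMSO, at 8.18 and 8.04 FPKM, number 3 was the highest of the 3 with rosiglitazone, at 7.87, and number 3 was the highest with IL4, at 574. The numbers of the KO rosiglitazone libraries may not match those of the other groups, since their descriptions run from 22 to 24 and skip the number before. KO DMSO library 1 had 0.146 FPKM, which the spacing puts at 2 counted fragments, against 45 to 240 in the other KO DMSO libraries. Over the 23 libraries without IL4, Retnla rested on 2 to 240 counted fragments.

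Chid1, the widely expressed member, had 7.07, 6.28, 6.19 and 6.25 FPKM in untreated control libraries and 8.98, 8.07, 8.27 and 8.33 with IL4. In KO libraries it had 6.86, 5.92, 5.45 and 6.60 FPKM untreated and 8.68, 7.18, 7.10 and 7.35 with IL4. The IL4 and untreated groups did not overlap in either genotype. The log2 difference was 0.34 in control cells (SE 0.07, limma adjusted p = 0.001064) and 0.25 in KO cells (SE 0.07, limma adjusted p = 0.015). Neither call held on the deposited scale, at 0.23 and adjusted p = 0.5765 in control and 0.46 and adjusted p = 0.1097 in KO cells. The KO call was also lost without KO untreated library 3 (0.20, adjusted p = 0.06472), without KO IL4 library 1 (0.19, adjusted p = 0.08819) and without the 3 libraries of low sum (0.15, adjusted p = 0.2999).

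Chil1, the BRP-39 gene, was at 0 to 0.302 FPKM in all 31 libraries, and the spacing puts it at 0 to 18 counted fragments per library. With IL4 the 4 control libraries had 0.0927, 0.0638, 0.0137 and 0.0989 FPKM, and the untreated ones had 0.0457, 0.0985, 0 and 0.112, so the groups overlapped (exact permutation test, two-sided, p = 0.9143). In KO cells it had 0.155 ± 0.0551 with IL4 and 0.0955 ± 0.0527 FPKM untreated (SD, n = 4, exact permutation p = 0.1429, adjusted over 10 tests 0.2381).

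The comparison of KO and control cells with IL4 asks whether the level reached with IL4 differed between the genotypes. Chil4 fell in KO cells, 1 of 4 members tested, against 6.26% of all genes that fell, and 0 rose. Since Chil4 passed the filter only through IL4 libraries, this count is partly set by the filter. Chil3 was lower by a like amount in the mean but did not pass in the fit over all libraries. Retnla and Chid1 did not pass.

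The mean of Chil3 with IL4 was 1.93 times as high in control as in KO cells, with 6381 ± 1114 FPKM in the first and 3303 ± 376 in the second (SD, n = 4). The lowest control library, at 5402, stood above the highest KO library, at 3635. The log2 difference of KO minus control was -0.94 (SE 0.33, 95% interval -1.62 to -0.26), with an unadjusted p of 0.008759 and a limma adjusted p of 0.07057. When the fit held only the 8 IL4 libraries the difference was the same, its SE was 0.15 and its limma adjusted p was 0.004394; over all alternative settings the adjusted p ranged from 0.004394 to 0.3495.

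The mean of Chil4 with IL4 was 1.96 times as high in control as in KO cells, with 212 ± 30.7 FPKM in the first and 108 ± 14.8 in the second (SD, n = 4). The lowest control library had 185 FPKM and the highest KO library 122, so the groups did not overlap. The log2 difference of KO minus control was -0.97 (SE 0.13, limma adjusted p = 5.366e-06). With a pseudocount of 0.1, the SE in the fit over all libraries was 0.37 and the adjusted p was 0.1066, while with the same pseudocount and only the 8 IL4 libraries, a setting chosen after seeing the data, it was 0.001289. Over all alternative settings the adjusted p ranged from 6.668e-06 to 0.1066.

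Chil3 and Chil4 kept a narrow ratio with IL4. Chil3 had 28.1 to 31.0 times the FPKM of Chil4 in the 4 control libraries and 29.7 to 31.5 times in the 4 KO libraries, so the ratio overlapped between genotypes. In the 23 libraries without IL4 the ratio ran from 16.8 to 55.6, where Chil4 had 2 to 56 counted fragments. Whether reads of Chil3 were counted for Chil4 was not tested, so the 2 genes are not independent measurements of the same difference.

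**Figure D2:**
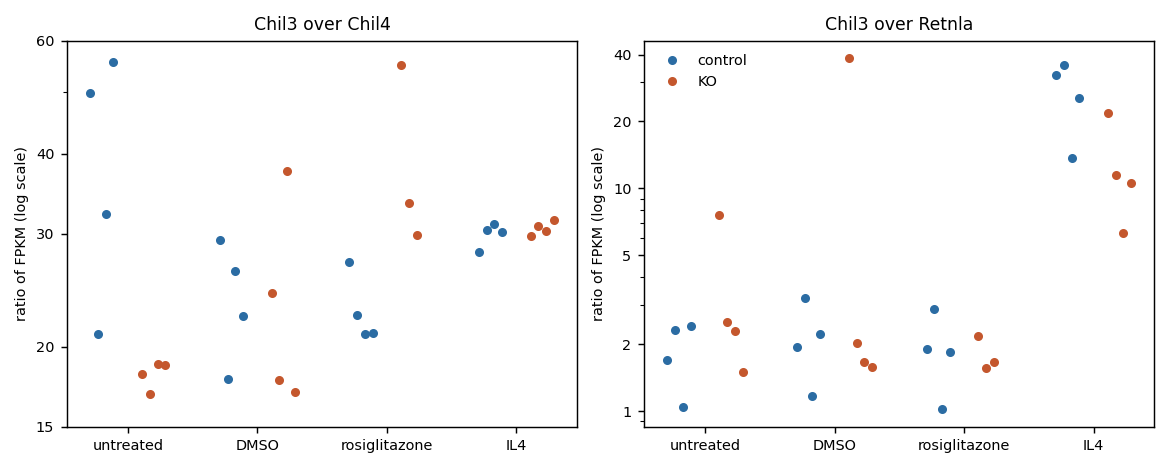
Ratio of Chil3 to Chil4 FPKM (left) and of Chil3 to Retnla FPKM (right) on log axes, 1 point per library, by treatment, blue for control and orange for KO. With IL4 the first ratio stays between 28.1 and 31.5 in all 8 libraries, while the second runs from 6.29 to 36.0.

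Retnla with IL4 averaged 289 ± 195 FPKM over the control libraries and 320 ± 176 over the KO libraries (SD, n = 4), and the libraries overlapped over nearly their whole range. The log2 difference of KO minus control was 0.21 (SE 0.57, limma adjusted p = 0.9245), with a 95% interval from -0.97 to 1.38, which includes a change of the size seen for Chil4 in either direction. The Chil3 to Retnla ratio was 13.7 to 36.0 in control and 6.29 to 21.8 in KO libraries. Chid1 with IL4 averaged 8.41 ± 0.394 FPKM over the control libraries and 7.58 ± 0.740 over the KO libraries, a log2 difference of -0.14 (SE 0.07, 95% interval -0.29 to 0.014, limma adjusted p = 0.2964).

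Some marker sums of other cells differed between these 2 groups. The 10 markers of mesothelial cells and fibroblasts, of which 9 passed the filter and none was at 0 in any library, summed to 3.70 to 37.2 FPKM in control and 34.0 to 141 in KO IL4 libraries. The 8 neutrophil markers found, of which only S100a8 passed, summed to 11.8 to 21.9 FPKM in control and 5.63 to 8.56 in KO IL4 libraries, and S100a9 was at 0 in 29 of 31 libraries. The 5 eosinophil markers summed to 5.39 to 7.56 FPKM in control and 6.07 to 11.9 in KO IL4 libraries. The part of these cells in the Chil3 and Chil4 differences was not tested. Macrophage marker sums were 1089 to 1219 in control and 1012 to 1143 in KO IL4 libraries.

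The difference of the IL4 responses, KO minus control, sets each genotype against its own untreated cells. It was lower for Chil4, 1 of 4 members, against 0.448% of all genes, and 0 members were higher. Chil4 entered this test only through IL4 libraries, so the count is partly set by the filter. For Chil4 it was -1.14 on the log2 scale (SE 0.19, 95% interval -1.53 to -0.76, limma adjusted p = 0.0008565). The call did not hold under every setting: with a pseudocount of 0.1 the value was -1.58 with an adjusted p of 0.4744, on the deposited scale it was -0.94 with an adjusted p of 0.3453, and over all alternative settings the adjusted p ranged from 7.702e-05 to 0.4744. Chil3 had -0.83 (SE 0.47, 95% interval -1.79 to 0.14), Retnla 0.75 (SE 0.81, 95% interval -0.91 to 2.42) and Chid1 -0.087 (SE 0.10, 95% interval -0.30 to 0.13), each with a limma adjusted p of 0.9998.

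**Figure D3:**
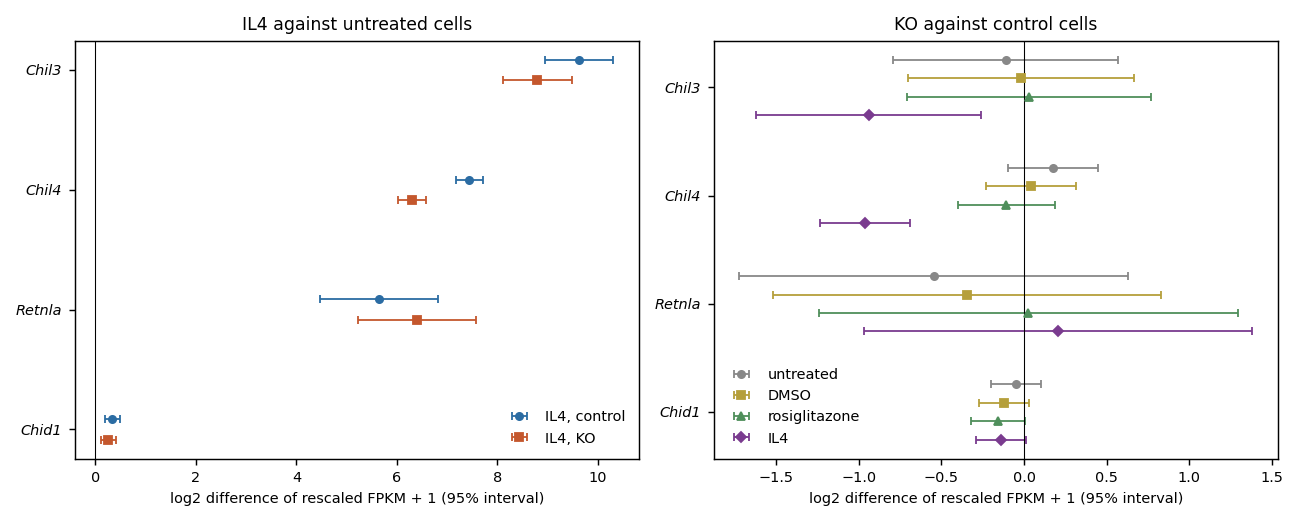
Log2 differences of rescaled FPKM + 1 with 95% intervals from the limma fit, for IL4 against untreated cells (left, circles control, squares KO) and KO against control cells in each treatment (right). In the right panel, with IL4 the intervals of Chil3 (-1.62 to -0.26) and Chil4 lie below 0, and all other intervals include 0.

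In untreated cells KO and control did not differ detectably in the 4 tested members: 0 of 4 were called, 0 of 4 had an unadjusted p under 0.05, and limma called 4.16% of all genes. Chil3 averaged 6.98 ± 3.76 FPKM over the KO and 7.31 ± 2.43 over the control libraries (SD, n = 4), a log2 difference of -0.11 (95% interval -0.80 to 0.57). Chil4 had 0.383 ± 0.197 against 0.221 ± 0.132 FPKM, a difference of 0.18 (-0.10 to 0.45). Retnla had 3.19 ± 3.36 against 4.52 ± 3.03 FPKM, a difference of -0.55 (-1.72 to 0.63). Chid1 had 6.21 ± 0.641 against 6.45 ± 0.414 FPKM, a difference of -0.050 (-0.20 to 0.10).

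With DMSO, Chil3 had 4.26, 6.30, 8.76 and 8.09 FPKM in control and 5.61, 5.44, 4.56 and 12.6 in KO libraries. DMSO against untreated cells gave 0 of 4 members called in either genotype by limma, 0 of 4 at an unadjusted p under 0.05, and 0% of all genes, with 685 genes in control and 504 in KO cells at an unadjusted p under 0.05. KO against control cells with DMSO gave 0 of 4 called and 0 of 4 at an unadjusted p under 0.05, against 3.48% of all genes.

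Rosiglitazone against DMSO asks whether a PPARγ ligand alone moved these genes. In control cells 0 of 4 members were called and 0 of 4 had an unadjusted p under 0.05, against 4.3% of all genes. Chil3 had 3.30, 7.05, 8.61 and 8.39 FPKM in control libraries with rosiglitazone, within the range of the DMSO libraries but for the lowest, and a log2 difference of -0.031 (95% interval -0.71 to 0.65). Retnla had 1.74, 2.44, 8.45 and 4.57 FPKM, a difference of 0.10 (-1.08 to 1.28). In KO cells 0 of 4 were called and 0 of 4 had an unadjusted p under 0.05, and limma called 0% of all genes, with 144 at an unadjusted p under 0.05. The 3 KO rosiglitazone libraries had 4.13, 5.19 and 13.0 FPKM of Chil3 and 1.90, 3.32 and 7.87 of Retnla. The difference of the rosiglitazone responses called 0 of 4 members, 0 of 4 at an unadjusted p under 0.05, against 0.798% of all genes.

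KO against control cells with rosiglitazone gave 0 of 4 called and 0 of 4 at an unadjusted p under 0.05, against 11.8% of all genes. Chid1 had 6.27, 5.74 and 6.37 FPKM in KO and 7.66, 7.04, 6.81 and 6.38 in control libraries, which did not overlap by a small margin. Its log2 difference was -0.16 (95% interval -0.32 to 0.0029, unadjusted p = 0.05387, limma adjusted p = 0.228).

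The mean of Chil1 was higher in KO than in control cells in each of the 4 treatments, and no difference passed after adjustment. With DMSO the KO libraries had 0.155, 0.190, 0.109 and 0.214 FPKM, or 6 to 18 counted fragments, and the control libraries had 0.0260, 0.0151, 0.0175 and 0, or 0 to 2. The groups did not overlap (exact permutation test, two-sided, p = 0.02857, the smallest that 4 against 4 libraries can give, adjusted over 10 tests 0.2381). With rosiglitazone KO had 0.212 ± 0.0804 (n = 3) and control 0.0648 ± 0.0671 FPKM (SD, n = 4), again with no overlap (exact permutation p = 0.05714, adjusted 0.2381). With IL4 the means were 0.155 and 0.0673 FPKM (exact permutation p = 0.08571, adjusted 0.2381) and in untreated cells 0.0955 and 0.0641 FPKM (exact permutation p = 0.4, adjusted 0.5), with overlap in both. The mesothelial and fibroblast marker sums were also higher in KO cells, at 23.9 to 101 against 2.93 to 34.0 FPKM with DMSO, and their part in the Chil1 values was not tested.

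**Figure D4:**
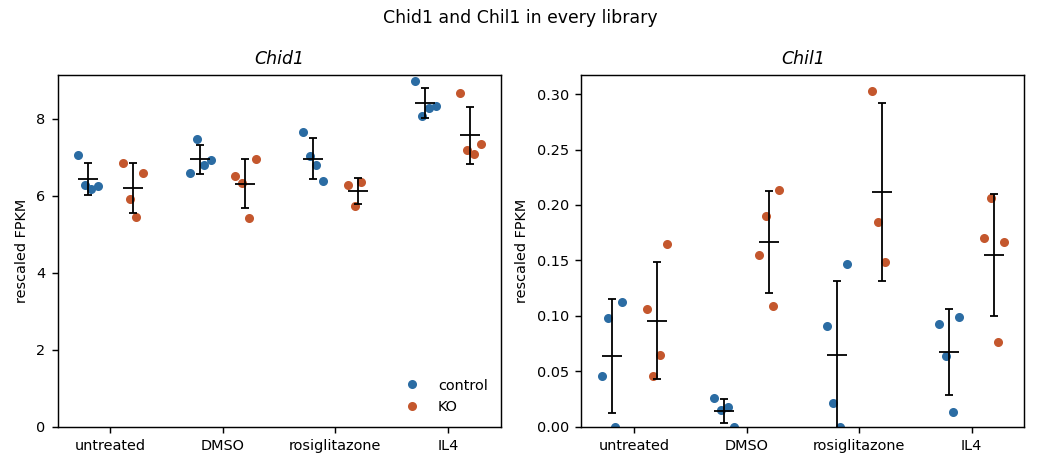
Chid1 and Chil1 in rescaled FPKM, by treatment, 1 point per library, blue for control and orange for KO, with the group mean and SD (n = 4, and 3 for KO rosiglitazone). Chid1 is higher with IL4 in both genotypes, and Chil1 stays at or below 0.302 FPKM everywhere.

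Other genes of the 2 families were low. Chia1, an acidic chitinase, Chit1, the chitotriosidase, and Chil6, Ovgp1, Retn, the resistin gene, Retnlb and Retnlg were at most 0.102 FPKM in every library, and none passed the filter. Ctbs, the lysosomal di-N-acetylchitobiase, had 6.67 to 11.8 FPKM. It fell with IL4 in control cells by 0.38 on the log2 scale (limma adjusted p = 0.001939), and in KO cells its difference was -0.20 and did not pass (limma adjusted p = 0.1138).

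A list of 32 other genes of IL4 activation places the members. Of the 27 that passed the filter, 20 rose and 2 fell in control cells with IL4, where 12% of all genes rose and 10.6% fell, with a median log2 difference of 1.03, against 0.0027 over all genes tested. Arg1, arginase 1, went from 0.316 ± 0.254 to 85.4 ± 38.7 FPKM, a difference of 5.96. The 6 with the smallest p were Cish and Socs1, feedback inhibitors of cytokine signalling, at 2.89 and 1.93, Pdcd1lg2, the PD-1 ligand PD-L2, at 3.09, Rnase2a, an eosinophil-type ribonuclease, at 4.37, Slc7a2, an arginine carrier, at 3.17, and Irf4, a transcription factor of alternative activation, at 2.61. Il1rn and Il13ra1 fell by 1.83 and 0.83. In KO cells 21 rose and 2 fell, where 10.4% of all genes rose and 8.98% fell, with a median of 1.27. Cish, Socs1, Pdcd1lg2 and Rnase2a had at most 0.207, 0.678, 0.272 and 0.179 FPKM in libraries without IL4. They and other list genes such as Mgl2 passed the filter only through IL4 libraries. The counts of list genes that rose are therefore partly set by the filter in either genotype.

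While Chil4 was lower in KO cells with IL4, 8 of the 27 list genes were higher in KO than in control cells and 0 were lower, where 4.47% of all genes were higher and 6.26% lower, with a median log2 difference of 0.26 against -0.0082 over all genes. Ccl24, an eosinophil-attracting chemokine, averaged 8.22 ± 4.28 FPKM over the KO and 0.618 ± 0.0895 over the control libraries (SD, n = 4), a difference of 2.40 (limma adjusted p = 1.898e-11). Rnase2a had 59.7 ± 10.0 against 20.7 ± 6.55 FPKM, a difference of 1.52 (limma adjusted p = 1.807e-09), and Flt1, a receptor of VEGF, differed by 1.16. Ccl24 and Flt1 reached 1 FPKM only in KO IL4 libraries, at 4.16 to 14.1 and 1.65 to 3.40 FPKM. They passed the filter only through the group where they were high. Cdh1 of the list had 0.147 to 0.242 FPKM in KO and 0.426 to 0.659 in control IL4 libraries. It did not pass the filter and was not tested. The counts of list genes higher and lower are therefore partly set by the filter. In the difference of the IL4 responses 3 of the 27 were higher, Ccl24 at 2.34, Rnase2a at 1.42 and Flt1 at 0.94, and 0 were lower, where 0.253% of all genes were higher and 0.448% lower. Ccl24 and Flt1 entered this test only through KO IL4 libraries and Rnase2a only through IL4 libraries, while Cdh1 was left out. These counts are also partly set by the filter. Ch25h, Cish and Pdcd1lg2, the next by p, had 0.72, 0.28 and 0.24 and did not pass.

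**Figure D5:**
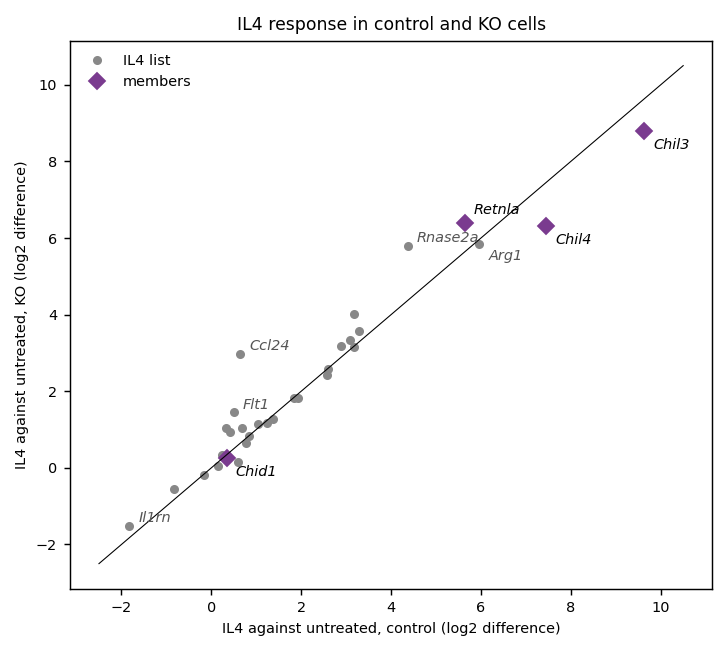
Log2 difference of IL4 against untreated cells in control (x) and KO cells (y), 1 point per gene, for the 27 tested genes of the IL4 list (grey) and the 4 tested members (purple); the line marks equal responses. Chil3 (9.63, 8.80) and Chil4 (7.45, 6.30) lie below the line, and Ccl24 and Rnase2a above it.

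The genes with the pattern most like each member were ranked by Pearson's r of log2(FPKM + 1) over the 31 libraries, which share mice and fall into libraries with and without IL4. For Chil3 they were Chil4 (r = 0.997), Tmem26, Slc36a2, Pdcd1lg2 and Il31ra (0.987), and for Chil4 they were Chil3, Tmem26, Il31ra, Slc36a2 and Pdcd1lg2 (0.989). For Retnla they were Chil3 (0.972), Fcrls, Tnip3, Mgl2 and Pdcd1lg2 (0.963). For Chid1 they were Endod1 (0.906), Mvd, Colgalt1, Atp5a1 and Naaa (0.878). Within the 8 IL4 libraries Chil3 had an r of 0.996 with Chil4 and 0.10 with Retnla, and within the 23 others 0.84 and 0.73. In the IL4 libraries neither Chil3 nor Chil4 overlapped between control and KO, so their r includes that difference. Over the 8 group means 2, 3, 0 and 0 of these 5 genes were again among the first 5 for Chil3, Chil4, Retnla and Chid1.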

How the data were processed

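RNA of 31 macrophage libraries was made into libraries with a stranded total RNA kit, per the labels' protocols. The authors deposited 1 table of FPKM values per gene symbol. The submitters' processing notes name TopHat2, featureCounts, edgeR and mm9, without versions or roles, and whether strand was used and which tool made the FPKM are not stated there. All 31 value columns were matched to samples by their names. Of the 24302 symbols, 25 that a spreadsheet had turned into dates (0.136% of the FPKM) were left out. Each library was divided by its median ratio to the geometric mean of 12109 genes.

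Genes with at least 1 rescaled FPKM in at least 3 libraries, 10277 in all, were tested. On log2(rescaled FPKM + 1), limma 3.58.1 (R 4.3.3, trend option) fitted a mean for each of the 8 groups over all 31 libraries, and p was adjusted by Benjamini and Hochberg over genes within each of 12 comparisons. Tests were two-sided and a gene was called at an adjusted p under 0.05. The fit was tested on simulated data. Chil1 was compared by exact permutation of libraries (Python 3.11.15, scipy 1.17.1). Counted fragments, reads or read pairs, were read from the spacing of low FPKM values times relative depth, with every value within 0.05 of a whole number for Chil4, Retnla and Chil1; the spacing was not found for Chil3 and Chid1. No interval for counting error was computed.

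The members, gene lists and tests were chosen with earlier results of these data known. The genes named are the members and the 5 genes of most like pattern for each. Up to 6 of the IL4 list by p in 2 comparisons and the chitinase and resistin family by range were also named. Arg1, Il1rn, Il13ra1 and Cdh1 were named after their values were seen. Promoters are from RefSeq in GRCm38.p6, where all 5 members matched, and transcripts from GENCODE M21. Nothing ties single libraries to separate cultures, so p-values measure the spread between these libraries. Alternatives were the deposited scale, upper-quartile scaling, a pseudocount of 0.1, no filter, fits with only the groups compared, leaving out libraries, and a replicate block.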

Additional observations from a re-analysis of the deposited data

Results flagged for a closer look

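In groups of 4 libraries, a library was marked when its gap to the next was large against the range of the group by Dixon's criterion. Of 35 groups of the 5 members, 5 were marked, where chance marks about 1 in 20. Chil3 in KO DMSO library 4 had 12.65 FPKM, above the 4.56 to 5.61 of the other 3. Chil4 in control DMSO library 1 had 0.1452 FPKM, below the 0.333 to 0.362 of the others. Retnla in KO untreated library 4 had 8.178 FPKM, above 0.899 to 2.07. Chid1 in control untreated library 1 had 7.066 FPKM, above 6.19 to 6.28, and in KO IL4 library 1 it had 8.677 FPKM, above 7.10 to 7.35.

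The IL4 response of Chil4 differed between genotypes by -1.14 on the log2 scale in a test of the difference itself (limma adjusted p = 0.0008565). It did not pass with a pseudocount of 0.1 (limma adjusted p = 0.4744) or on the deposited scale (limma adjusted p = 0.3453). Chil4 entered the test only through IL4 libraries.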

How the results depend on the processing

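Over settings other than leaving out a library, 217 of 231 values kept their direction and their side of the threshold, and 246 of 253 did so when 1 library was left out. On the deposited scale the Chid1 response to IL4 was 0.23 in control and 0.46 in KO cells and no longer passed, the Chil4 difference of IL4 responses was -0.94 and no longer passed, and the Chid1 difference turned to 0.23. With a pseudocount of 0.1 Chil4 did not pass for KO against control with IL4 (-0.97) or the difference of responses (-1.58). With only the groups compared, Chil3 passed for KO against control with IL4 (-0.94) and Chid1 lost its IL4 call in KO cells (0.25). With those groups and a pseudocount of 0.1, chosen after seeing the data, Chil3 passed (-0.94) and the Chil4 difference of responses did not (-1.58). Without the 3 libraries of low sum, Chid1 with IL4 in KO cells was 0.15 and did not pass, and 3 uncalled differences of KO against control turned: Chid1 untreated 0.055, Chil3 untreated 0.35 and Retnla with IL4 -0.017. Leaving out 1 library gave 0.19 to 0.29 for Chid1 with IL4 in KO cells, -0.093 to 0.0021 for Chid1 and -0.39 to 0.11 for Chil3 in KO against control untreated, and -0.12 to 0.60 for Retnla in KO against control with IL4. The cause of these shifts was not tested.

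Counts over all genes moved more. KO against control called 172, 121, 447 and 448 genes as deposited (untreated, DMSO, rosiglitazone, IL4) against 428, 358, 1213 and 1102, and with only the groups compared 187, 169 and 694 in the first 3. IL4 called 698 genes in control cells (285 higher) and 862 in KO cells (739 higher) as deposited, against 2319 (1234 higher) and 1992 (1069 higher), and upper-quartile scaling gave 846 higher of 2121 in KO cells. Of the deposited calls for KO against control, 15 were higher untreated, 64 in DMSO and 291 with IL4, against 145, 121 and 459, and upper-quartile scaling gave 195 of 442 untreated. IL4 in KO cells called 1097 with only the groups compared. Rosiglitazone in control cells called 91 (80 higher) as deposited against 442 (318 higher). The difference of IL4 responses called 24 (14 higher) as deposited, 38 with a pseudocount of 0.1, 40 with only the groups compared, 24 with both changes and 47 without the low sums, against 72 (26 higher). The difference of rosiglitazone responses called 19 (0 higher) as deposited and 47 with only the groups compared, against 82 (11 higher). KO against control untreated called 249 without the low sums.

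The labels do not say that a replicate number marks a mouse. Residuals from the group means of the 1000 most variable genes were correlated between libraries of a genotype. For each library, r was averaged over the libraries of each number in the other treatments. Of 28 libraries outside KO rosiglitazone, 27 had their highest mean r with their own number. The 3 KO rosiglitazone libraries had it with the number 1 higher. Outside KO rosiglitazone, 33 of 36 same-number pairs had r over 0.1. A random replicate block (correlation 0.18) changed no call of a member: Chil4 in KO against control with IL4 was -0.97 and Chil3 had an adjusted p of 0.05617. Fixed blocks were fitted only within a genotype and for the differences of responses, not for KO against control. In those comparisons they changed no call of a member. They called up to 1383 genes for rosiglitazone in control cells, and up to 3893 and 3623 for IL4 in control and KO cells. The differences of the responses to rosiglitazone and IL4 had up to 353 and 275. DMSO had up to 177 in control and 95 in KO cells.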
